A study of Mus musculus with 8 samples.

Results

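The replication-dependent histone genes encode the H1, H2A, H2B, H3 and H4 proteins that package newly copied DNA. They were taken as all genes of the deposited table whose symbol starts with Hist1h, Hist2h, Hist3h or Hist4h and does not mark a pseudogene, which gave 67 of 47729 genes. The class follows from the symbol: 6 are H1, 20 H2A, 16 H2B, 12 H3 and 13 H4 genes. GENCODE vM21 annotates 65 of them as protein-coding and the H2A members Hist1h2aj and Hist1h2al as pseudogenes. By symbol and chromosome 54 are Hist1 members on chromosome 13, 10 Hist2 on chromosome 3, 2 Hist3 on chromosome 11 and 1, Hist4h4, on chromosome 6. Hist1h2al lies at chr13:51202727-51203065, apart from the other Hist1 members, which end by position 23934851.

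RNA was sequenced from sorted bone marrow cells of C57BL/6 mice with a disease like chronic myeloid leukaemia, 4 mice with an shRNA against Fubp1 (knockdown) and 4 mice with a scrambled shRNA, 1 library per mouse. Cells of both groups carried a retroviral MSCV-IRES-RFP BCR-ABL1 construct and a pLKO.1-Venus lentivirus with the shRNA, came from donors treated with 5-fluorouracil, and were grown in recipients irradiated with 900 cGy. The sorted fraction was negative for lineage markers and DAPI and positive for both fluorescent reporters. The sources used here do not give the age and sex of the mice or the sequence of the shRNA.

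Unlike almost all other messenger RNAs, replication-dependent histone mRNAs end in a short stem-loop and carry no poly(A) tail. The stem-loop is bound by SLBP, the RNA is cut by a complex that contains the U7 snRNP and CPSF subunits, and the message is made in S phase and degraded when DNA synthesis stops. Some of these genes also give polyadenylated forms, known from differentiating and resting cells. The libraries were made from total RNA depleted of ribosomal RNA, a preparation that does not select for a poly(A) tail.

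The stem-loop was searched for in GENCODE vM21 transcripts (GRCm38) on the sense strand, as GG, any 2 bases, CTTTT, any base, AG, any 2 bases and CC, within the first 100 bases after the stop codon. Of the 50 members with at least 16 annotated bases there, 42 held it, against 5 of 21020 other protein-coding genes (0.0238%). In all 42 the 6 bases on the left of the loop pair with the 6 on its right. The copies of the genes that the values below turn on are shown with the stem and loop in capitals and 5 flanking bases on either side.
Hist1h1c: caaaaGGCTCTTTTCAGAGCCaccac
Hist1h1e: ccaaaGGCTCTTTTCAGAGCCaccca
Hist3h2a: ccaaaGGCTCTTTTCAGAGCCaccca
Hist3h2ba: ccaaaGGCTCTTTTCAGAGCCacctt
Hist1h2bg: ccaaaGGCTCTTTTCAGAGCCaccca
Hist1h4i: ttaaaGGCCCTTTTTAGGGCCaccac
These copies lie at chr13:23739507-23739532 (Hist1h1c, plus strand), chr13:23621777-23621802 (Hist1h1e, minus), chr11:58955167-58955192 (Hist3h2a, plus), chr11:58949344-58949369 (Hist3h2ba, plus), chr13:23571838-23571863 (Hist1h2bg, plus) and chr13:22040961-22040986 (Hist1h4i, minus), each in the annotated 3′ part of a single exon after the coding sequence. Hist2h2be and Hist1h2bc had no such letters in that window.

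The other end signal, AATAAA or ATTAAA in the last 40 bases of an annotated transcript, was found in 17 members and in 79.2% of 21886 other protein-coding genes. For Hist1h1c the annotated transcript runs on for 840 bases past the stem-loop, for Hist3h2a for 1643, for Hist1h4i for 330 and for Hist3h2ba for 169. All 4 have the hexamer at that far end. Hist1h1e and Hist1h2bg have none at their annotated ends.

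Total counts per knockdown library ran from 24042761 to 44761356, and per scrambled library from 22465303 to 38495006. Fubp1, the targeted gene, had 281, 228, 220 and 239 CPM (counts scaled to a common library size, with TMM factors) in the knockdown libraries, against 296, 284, 291 and 396 CPM in the scrambled libraries. Each knockdown value lay below each scrambled value, but the difference did not pass the threshold (log2 fold change -0.39, SE 0.12, edgeR adjusted p = 0.0604), while DESeq2 gave an adjusted p of 0.0150. Of 13462 tested genes, edgeR called 1080 higher and 982 lower. Of 7 markers of the sorted progenitors 1 was called, Spi1, a myeloid transcription factor, which was higher (log2 fold change 2.54, adjusted p = 0.0490, just under the threshold, edgeR). Kit, the stem cell factor receptor, had 53.1 to 113 CPM in knockdown and 77.0 to 231 CPM in scrambled libraries (log2 fold change -0.86, adjusted p = 0.158, edgeR). Cd34 had a log2 fold change of 2.39 and Ptprc of 1.82, and neither of these passed. Of the 7 markers 3 had a log2 fold change above 0 and 4 below, with a median of -0.18. The 7 early granulocyte markers summed to 1973, 950, 86.7 and 3609 CPM in knockdown and 35.9, 165, 333 and 84.1 CPM in scrambled libraries, so knockdown replicate 3 had less than 2 of the scrambled libraries. All 7 had an unadjusted p under 0.05 (edgeR), where 33.5% of all tested genes did, and 0 were called. Of 16 erythroid markers 4 were called higher and 5 lower. They summed to 7847 to 12326 CPM in knockdown and 9889 to 10981 CPM in scrambled libraries. That was the highest sum of the marker lists in every library. Of 4 tested megakaryocyte markers 2 were called higher, with summed levels of 111 to 191 CPM in knockdown and 50.4 to 64.1 CPM in scrambled libraries. Summed monocyte and macrophage markers ranged from 10.1 to 137 CPM in knockdown and 4.50 to 13.1 CPM in scrambled libraries. Summed B cell markers ranged from 0.984 to 33.8 CPM in knockdown and 0.194 to 1.6 CPM in scrambled libraries, most of it Ighm in the highest library, with Ms4a1 at 0 throughout. Summed T and NK cell markers ranged from 2.06 to 86.7 CPM in knockdown and 1.8 to 8.13 CPM in scrambled libraries, nearly all of it Nkg7, with Cd3e at 0 throughout. None of the monocyte, B, T and NK cell markers was called. An unadjusted p under 0.05 (edgeR) was found for all 4 tested monocyte and macrophage markers. The same held for 1 of 2 tested B cell markers and for the 1 tested T and NK cell marker. The part of cell makeup in the histone values was not tested. Fewer cells of a type and less RNA per cell cannot be told apart in these bulk samples.

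Histone genes took few of the counts. The 67 genes summed to 115, 109, 127 and 99.8 CPM in the knockdown libraries, against 123, 116, 83.4 and 101 CPM in the scrambled libraries. The groups overlapped, with means of 113 ± 11.6 CPM in knockdown and 106 ± 17.6 CPM in scrambled (SD, n = 4 each) and a log2 ratio of 0.09. In reads these sums are 2858 to 4587 counts per knockdown library and 2252 to 4432 per scrambled library.

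By class, the H1 genes summed to 48.1 ± 9.99 CPM in knockdown and 46.1 ± 11.1 CPM in scrambled libraries (SD, n = 4 each, as for all classes). The H2B genes summed to 28.6 ± 3.28 CPM in knockdown and 27.4 ± 4.80 CPM in scrambled libraries. The H4 genes summed to 27.8 ± 3.20 CPM in knockdown and 25.0 ± 4.43 CPM in scrambled libraries. In each of these classes 1 or a few genes give most of the sum, as set out below. The H2A genes summed to 5.25 ± 0.581 CPM in knockdown and 4.91 ± 1.05 CPM in scrambled libraries, and the H3 genes to 3.06 ± 1.01 CPM in knockdown and 2.58 ± 0.683 CPM in scrambled libraries. The library ranges of the groups overlapped in all 5 classes, with log2 ratios between 0.06 for H1 and H2B and 0.25 for H3.

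**Figure D1:**
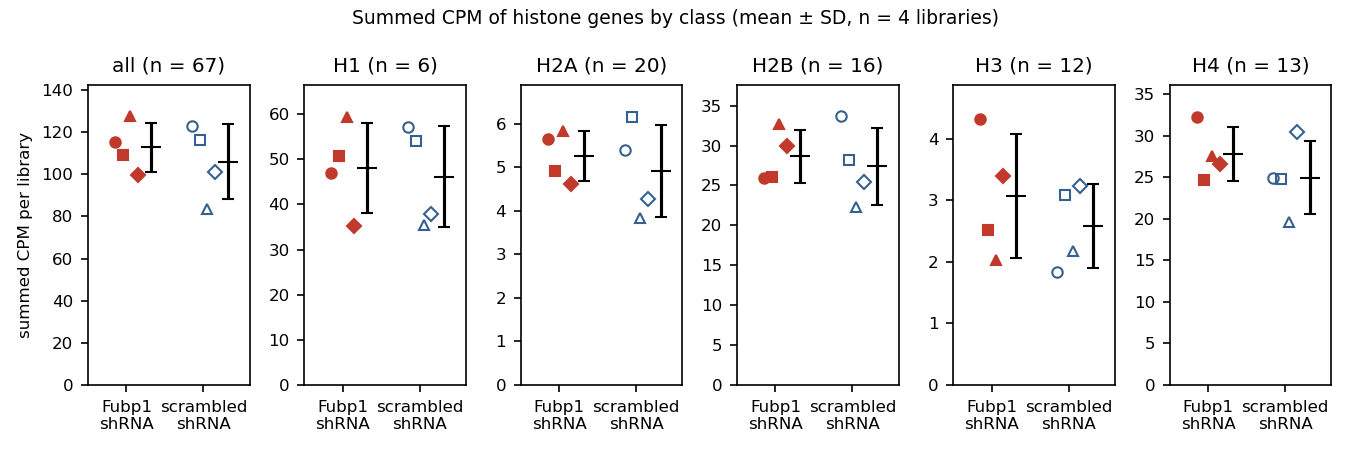
Summed CPM per library for all 67 histone genes and for each class, with Fubp1 shRNA libraries (red, filled) left of scrambled shRNA libraries (blue, open), the marker shape giving the replicate number and the bar the mean ± SD of 4 libraries. The groups overlap in every panel, with means of 113 CPM in Fubp1 shRNA and 106 CPM in scrambled shRNA over all genes.

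Of the 67 genes, 13 had no count in any library, 28 had counts but too few for the test, and 26 were tested. None of the 26 passed an adjusted p of 0.05 (edgeR quasi-likelihood test, Benjamini-Hochberg over all tested genes), where 15.3% of all tested genes did, 8.02% higher and 7.29% lower. At an unadjusted p under 0.05 there was 1 member, Hist1h2bg, where 33.5% of all genes passed. The ranges of the knockdown and scrambled libraries overlapped for all 26, where 20.7% of all genes had no overlap. Low levels set part of this background: 20 of the 26 averaged under 2 CPM, and among all tested genes under 2 CPM 8.99% were called and 24% had an unadjusted p under 0.05. DESeq2, which tests all 54 members with counts, called 0 and had 0 at an unadjusted p under 0.05, and limma-voom called 0 of 26 with 1 at an unadjusted p under 0.05. The authors' deposited table gives an adjusted p for 42 members, of which 0 were under 0.05, with the smallest at 0.173, for Hist1h2bg. A member can pass the filter on low counts through its higher group alone, so the counts and medians over tested members that follow are descriptions.

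Of the 26, 19 had a log2 fold change above 0 and 7 below, with a median of 0.36, where the median of all tested genes was 0.0012. The median was 0.42 over 5 tested H1 genes, 0.28 over 2 H2A genes, 0.32 over 7 H2B genes, 0.05 over 5 H3 genes and 0.14 over 7 H4 genes. The median over the 26 was 0.09 without knockdown replicate 1, a library described below, and 0.20 without scrambled replicate 3. With 1 library left out in turn it lay between 0.07 and 0.61 for H1, 0.19 and 0.42 for H2A, 0.13 and 0.42 for H2B, -0.15 and 0.26 for H3, and 0.03 and 0.45 for H4. The lowest H1 and H2B values were those without knockdown replicate 1. The 95% intervals left out a 2-fold change in either direction for 11 of the 26 and a 1.5-fold change for 3, Hist1h1c, Hist1h4i and Hist1h2bc. For the other members the data do not limit the change so closely.

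**Figure D2:**
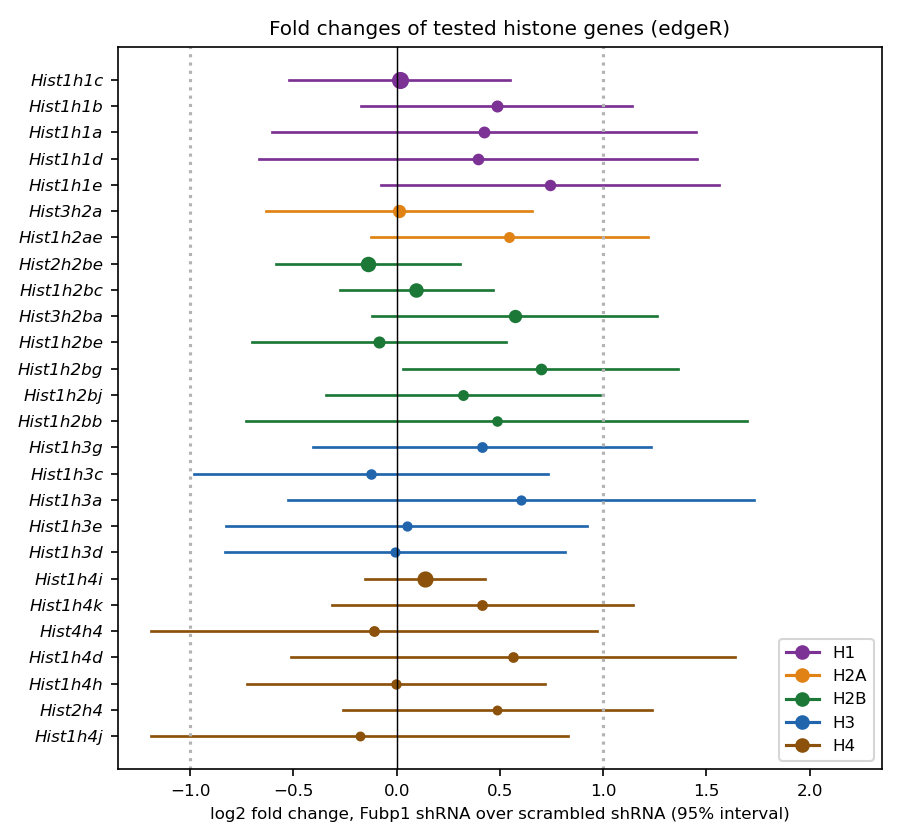
Log2 fold change, Fubp1 shRNA over scrambled shRNA, of the 26 tested histone genes with the 95% interval of the edgeR fit, ordered by class and within it by level, with larger points for higher CPM and dotted lines at a 2-fold change. The intervals include 0 for every gene but Hist1h2bg, whose adjusted p was 0.132.

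The linker histones (H1) bind the DNA between nucleosomes. Hist1h1c, which encodes H1.2, had the highest CPM of all members and alone held 39.1% of all histone counts. It had 38.4, 47.0, 56.3 and 30.4 CPM in the knockdown libraries, against 54.1, 50.1, 32.4 and 33.5 CPM in the scrambled libraries. High and low libraries occurred in both groups, and the log2 fold change was 0.01 (SE 0.23, adjusted p = 0.974, edgeR), a value whose sign turned in several alternatives.

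Hist1h1b, which encodes H1.5, had 2.30, 1.06, 1.24 and 1.44 CPM in knockdown libraries, against 1.17, 1.26, 1.04 and 0.809 CPM in scrambled libraries. Hist1h1a, which encodes H1.1, had 2.26, 1.02, 0.539 and 1.5 CPM in knockdown libraries, against 0.694, 0.985, 0.701 and 1.62 CPM in scrambled libraries. In both genes knockdown replicate 1 was the highest library and the other 3 knockdown libraries lay within or close to the scrambled range. Hist1h1e, which encodes H1.4, had 1.69, 1.12, 0.508 and 1.02 CPM in knockdown libraries, against 0.50, 0.80, 0.571 and 0.719 CPM in scrambled libraries. Here 3 knockdown libraries lay above the scrambled ones and replicate 3 lay among them, with the largest log2 fold change of the 26 tested members, 0.74 (SE 0.36, adjusted p = 0.186, edgeR). Without knockdown replicate 3 the value was 0.97 with an edgeR adjusted p of 0.0463, the only call of a histone gene in the alternatives run, and without knockdown replicate 1 it was 0.46 with an adjusted p of 0.410.

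H2A and H2B form dimers in the nucleosome. Hist2h2be had the highest CPM of both classes, with 10.6, 10.1, 16.1 and 15.2 CPM in knockdown libraries, against 18.5, 14, 12.3 and 12.5 CPM in scrambled libraries. Its log2 fold change was -0.14 (SE 0.20, adjusted p = 0.669, edgeR). Knockdown replicate 3 and scrambled replicate 1 were the highest libraries of their groups, and the ranges overlapped. Hist1h2bc had 6.89, 7.76, 8.06 and 6.59 CPM in knockdown libraries, against 8.10, 7.69, 5.64 and 5.98 CPM in scrambled libraries. It was among the best measured members, and its log2 fold change of 0.10 (95% interval -0.27 to 0.46, edgeR) leaves room for a change below 1.5-fold in either direction.

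Hist3h2ba and Hist3h2a lie in the same small group on chromosome 11. Hist3h2ba had 2.90, 4.03, 4.85 and 3.05 CPM in knockdown libraries, against 3.27, 2.52, 1.32 and 2.88 CPM in scrambled libraries. Hist3h2a had 2.78, 3.20, 3.97 and 2.20 CPM in knockdown libraries, against 3.66, 3.97, 1.95 and 2.47 CPM in scrambled libraries. In both genes knockdown replicate 3 was high and scrambled replicate 3 was the lowest library. The log2 fold change was 0.57 (SE 0.30, adjusted p = 0.222, edgeR) for Hist3h2ba and 0.01 (SE 0.28, adjusted p = 0.987, edgeR) for Hist3h2a, and whether these differ was not tested.

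Hist1h2bg, the member with the smallest p, had 1.57, 1.06, 0.920 and 1.5 CPM in knockdown libraries, against 1.08, 0.831, 0.597 and 0.584 CPM in scrambled libraries. Scrambled replicate 1 exceeded knockdown replicates 2 and 3, so the groups overlapped. The log2 fold change was 0.70 (SE 0.29, unadjusted p = 0.0416, adjusted p = 0.132, edgeR). Hist1h2ae, the second tested H2A gene, had 0.886, 0.562, 0.666 and 0.697 CPM in knockdown libraries, against 0.278, 0.616, 0.493 and 0.540 CPM in scrambled libraries, and it did not pass either (adjusted p = 0.231, edgeR). Hist1h2ab had the highest CPM of the members left out by the filter, with 0.443, 0.264, 0.286 and 0.305 CPM in knockdown libraries, against 0.139, 0.308, 0.234 and 0.225 CPM in scrambled libraries.

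H3 and H4 form the tetramer at the centre of the nucleosome. Hist1h4i, the H4 gene with the highest CPM, had 26.1, 21.9, 24.5 and 23.0 CPM in knockdown libraries, against 21.8, 21.8, 17.1 and 26.3 CPM in scrambled libraries. Its log2 fold change of 0.14 had the smallest error of all members (SE 0.13, 95% interval -0.15 to 0.43, adjusted p = 0.504, edgeR). Hist1h4k had 1.01, 0.628, 0.571 and 0.435 CPM in knockdown libraries, against 0.444, 0.616, 0.364 and 0.540 CPM in scrambled libraries. Hist4h4, alone on chromosome 6, had 0.604, 0.363, 0.539 and 0.631 CPM in knockdown libraries, against 0.389, 0.400, 0.312 and 1.3 CPM in scrambled libraries, where the last library stood apart. With scrambled replicate 4 left out its log2 fold change was 0.53, against -0.11 with it. Hist1h4j had the lowest log2 fold change of the 26, -0.18 (SE 0.45, adjusted p = 0.821, edgeR), on 3 to 17 counts per library.

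No H3 gene reached 1 CPM in any library. Hist1h3g had 0.846, 0.496, 0.444 and 0.697 CPM in knockdown libraries, against 0.361, 0.400, 0.338 and 0.809 CPM in scrambled libraries. Hist1h3a had 0.886, 0.330, 0.190 and 0.392 CPM in knockdown libraries, against 0.194, 0.339, 0.208 and 0.450 CPM in scrambled libraries, and Hist1h3c had 0.484, 0.396, 0.254 and 0.653 CPM in knockdown libraries, against 0.278, 0.646, 0.441 and 0.629 CPM in scrambled libraries. A count of 3, about the least that can be told from none, is worth 0.067 to 0.134 CPM depending on the library, so these genes rest on about 6 to 32 counts per library. Their log2 fold changes were 0.41, 0.60 and -0.13, with edgeR adjusted p between 0.441 and 0.856, and their intervals leave room for a rise of more than 1.5-fold: the 95% interval for Hist1h3a ran from -0.53 to 1.73.

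**Figure D3:**
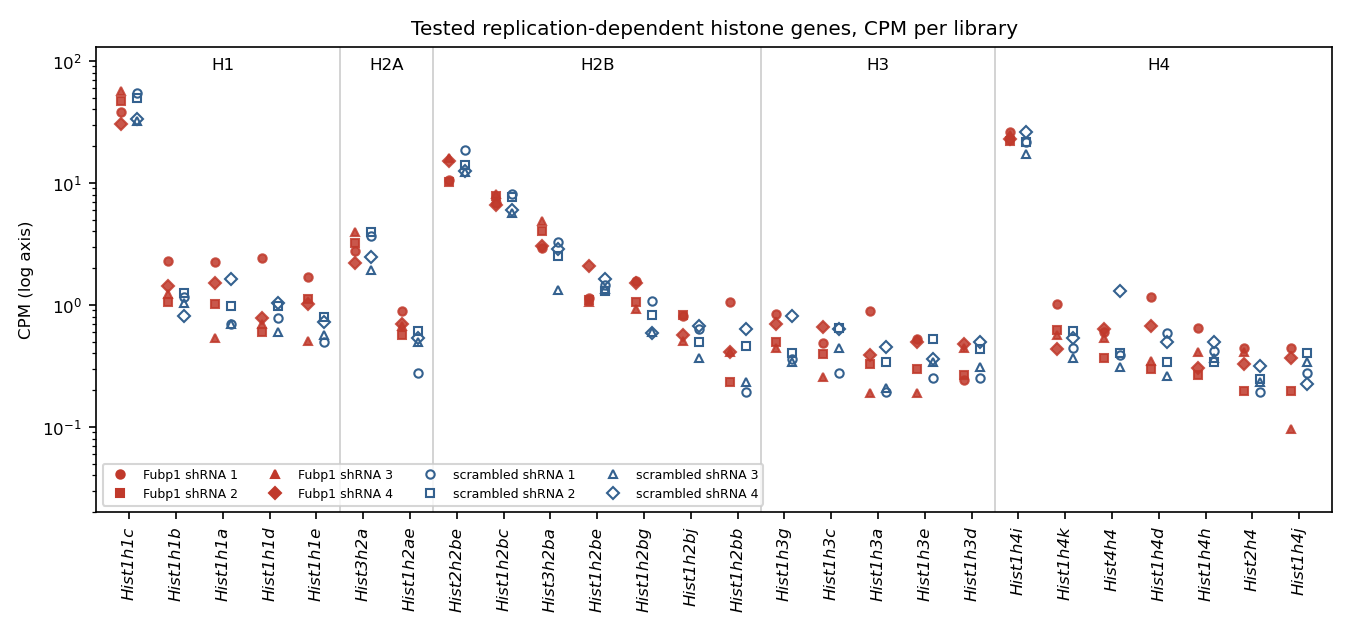
CPM per library (log axis) of the 26 tested histone genes by class, with Fubp1 shRNA libraries (red, filled) left of scrambled shRNA libraries (blue, open) and the marker shape giving the replicate number. The 6 genes with the highest CPM stand above 1.38 CPM on average, the red circle of Fubp1 shRNA replicate 1 is the top point in 15 genes, and the groups overlap in every gene.

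Counts were unevenly spread over the members. Hist1h1c, Hist1h4i, Hist2h2be, Hist1h2bc, Hist3h2ba and Hist3h2a, a group chosen here after the values were seen, held 84.7% of all histone counts, and each of the other 61 genes averaged at most 1.38 CPM. In these 6, 0 to 31.5% of the 50-base stretches of the transcript also occur in another gene. The median over all members with counts was 49.4%. How shared reads were counted is not known, and the part of shared sequence in this spread was not tested. Per kilobase of annotated exon, Hist1h4i came first with 31.4 CPM per kb and Hist1h1c second with 27.4. Then followed Hist1h2bc with 6.13, Hist2h2be with 5.21 and Hist3h2ba with 5.06 CPM per kb, and after these Hist1h4k with 1.84 and Hist1h1b with 1.73. Hist3h2a, with a long annotated exon, came 10th with 1.41 CPM per kb. Annotated lengths run from 312 to 7425 bases and decide these values in part, since reads need not cover the whole annotated exon.

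Among the 6, all but Hist1h2bc have a polyadenylation hexamer at an annotated end. The 17 members with the hexamer held 81.7% of the histone counts. The median over the 14 of them with counts was 0.610 CPM per kb, and over the 40 members with counts and no hexamer it was 0.419 CPM per kb. The counts do not show which end the sequenced RNA had.

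**Figure D4:**
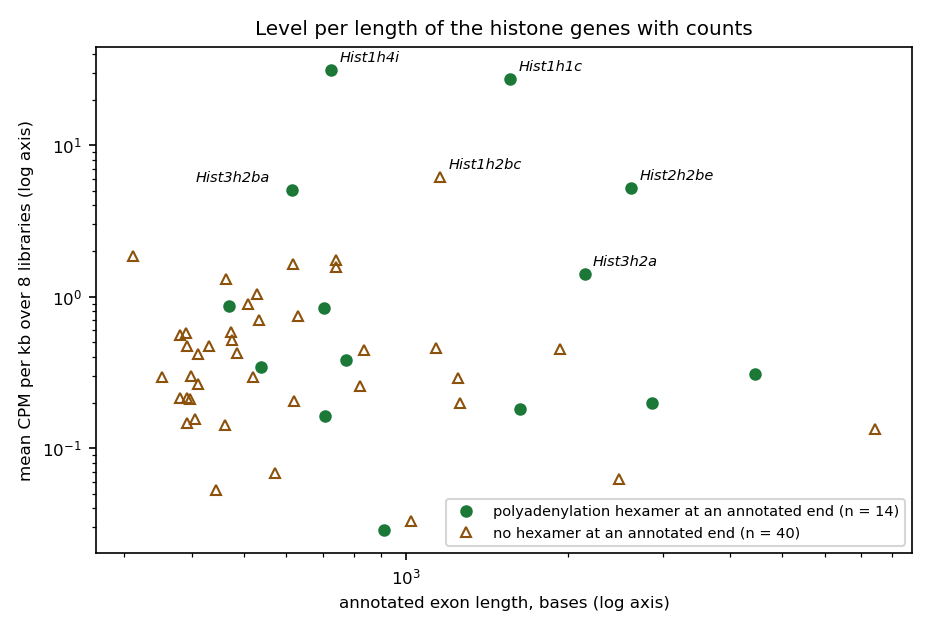
Mean CPM per kb over all 8 libraries against annotated exon length (both axes logarithmic) for the 54 histone genes with counts, split by whether a polyadenylation hexamer lies at an annotated transcript end (filled circles, 14 genes) or not (open triangles, 40 genes). Hist1h4i and Hist1h1c stand above 27 CPM per kb, 5 of the 6 labelled genes are filled, and the other filled genes lie among the triangles.

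The 13 members without any count were Hist1h2aa, Hist1h2al, Hist1h2ao, Hist1h2ap, Hist2h2aa1, Hist2h2aa2, Hist1h2ba, Hist1h2bq, Hist1h2br, Hist2h2bb, Hist2h3b, Hist2h3c1 and Hist1h4m. Hist1h2aa and Hist1h2ba are testis forms. Many histone genes are near copies of each other, and the sources used here do not say how the authors' counting treated reads with several possible origins. In 8 of the 13, at least 90% of the 50-base stretches of their transcripts also occur in the transcript of another gene, with a median of 93.5%. Among the 54 members with counts this held for 5, with a median of 49.4%. A level of 0 for Hist2h2aa1 and Hist2h2aa2, which share all such stretches with other genes, is therefore uncertain. So is the split of reads between any of the near-identical members, which is why the class sums are given beside the genes. Such sums do not bring back reads that the counting may have left out.

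The promoter windows of RefSeq (GRCm38.p6, 250 bases before to 50 after the start) matched 59 of the 67 genes by symbol, and letters were searched on both strands. The octamer ATTTGCAT, the site known for OCT1 in H2B promoters, was in 6 of 14 H2B and 7 of 17 H2A windows, and in none of 6 H1, 10 H3 and 12 H4 windows, against 1.92% of 26966 windows of other genes. CCAAT was in all H1, H2A, H2B and H3 windows and in 3 of 12 H4 windows (84.7% of all members against 41.0% of other genes). TATAAA was in 59.3% of members against 15.6% of other genes, and GACTTC in 22.0% against 17%. These motifs can share bases with other matches, and a match is only a description of the letters. The 100 bases before the start of Hist1h2bg, the member with the smallest p, carry the octamer and TATAAA (capitals; chr13:23571300-23571399, plus strand).
Hist1h2bg: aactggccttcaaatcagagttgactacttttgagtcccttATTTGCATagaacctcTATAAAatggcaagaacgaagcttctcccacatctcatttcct

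Knockdown replicate 1 was the highest of the 8 libraries in 15 of the 26 tested members, where it was the highest for 8.91% of all tested genes. The 61 genes outside the 6 abundant ones summed to 27.5, 14.9, 13.6 and 19.4 CPM in knockdown libraries, against 13.7, 16.3, 12.6 and 17.7 CPM in scrambled libraries. Their log2 ratio was 0.33 with all libraries and 0.09 without knockdown replicate 1. The 6 abundant genes summed to 87.6, 94.0, 114 and 80.4 CPM in knockdown libraries, against 109, 100, 70.8 and 83.6 CPM in scrambled libraries, and did not share that order.

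The same library was also the highest for 3 short RNAs known to have no poly(A) tail, though not for Terc, the telomerase RNA described below. Rmrp, the RNA of the RNase MRP particle, had 2.86, 0.892, 0.286 and 0.631 CPM in knockdown libraries, against 0.305, 0.246, 0.597 and 1.08 CPM in scrambled libraries. Rpph1, the RNA of RNase P, had 7.70, 3.24, 1.24 and 2.59 CPM in knockdown libraries, against 1.19, 1.51, 1.40 and 5.04 CPM in scrambled libraries. Rn7sk, the 7SK RNA that holds the elongation factor P-TEFb, had 2.94, 1.26, 0.413 and 1.22 CPM in knockdown libraries, against 0.527, 0.769, 1.04 and 1.75 CPM in scrambled libraries. Knockdown replicate 1 was the highest and scrambled replicate 4 the second highest in all 3. None passed the test (edgeR adjusted p between 0.346 and 0.571). The labels name 2 ribosomal RNA depletion kits without saying which library was made with which, so the kit and the library cannot be told apart, and the part of short RNA recovery in the histone values was not tested. Knockdown replicate 1 was also the highest library for the 5 basophil and mast cell markers, with a sum of 74.1 CPM and 4.60 to 25.6 CPM in the other knockdown libraries, against 1.72 to 15.7 CPM in the scrambled libraries, and their part was not tested either.

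**Figure D5:**
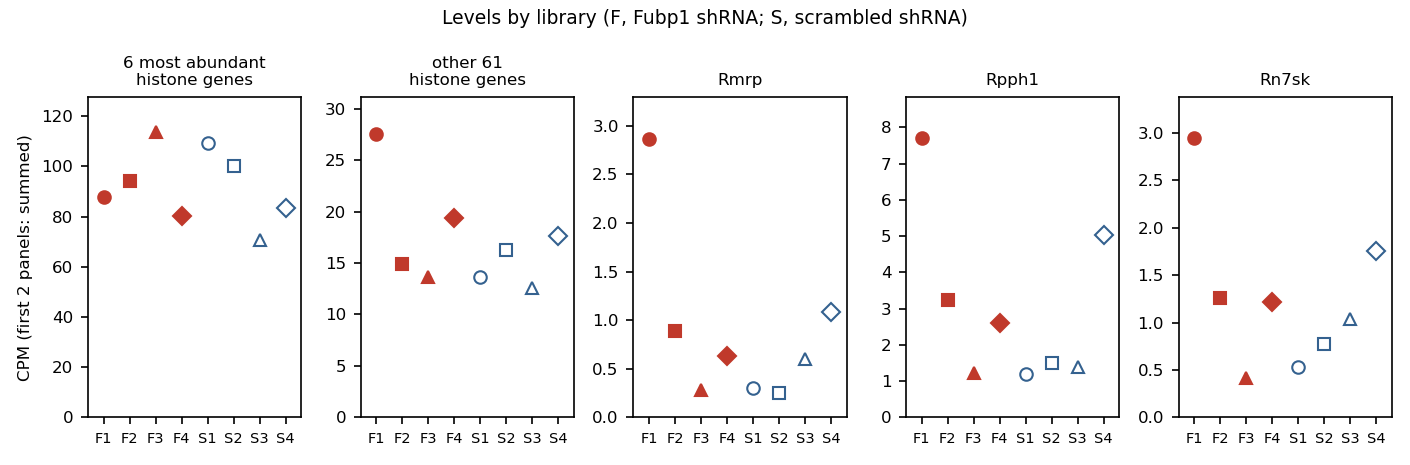
CPM per library, with F1 to F4 the Fubp1 shRNA and S1 to S4 the scrambled shRNA replicates, for the sum of the 6 most abundant histone genes, the sum of the other 61, and the RNAs Rmrp, Rpph1 and Rn7sk. F1 is the highest library for the other 61 histone genes (27.5 CPM) and for the 3 RNAs, while F3 is the highest for the 6 abundant genes (114 CPM).

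Of the whole list of 13 non-polyadenylated, nuclear and mitochondrial ribosomal RNAs 8 were tested, and all 8 had a log2 fold change above 0. Their median was 0.61, where that of all tested genes was 0.0012. Only mt-Rnr2, the large ribosomal RNA of mitochondria, was called, where 8.02% of all tested genes were called higher. It had 460, 349, 344 and 448 CPM in knockdown libraries, against 253, 239, 237 and 243 CPM in scrambled libraries (log2 fold change 0.72, SE 0.10, adjusted p = 0.00564, edgeR). It stayed called with any 1 library left out, and without knockdown replicate 3 there were 2 calls. Its partner mt-Rnr1 had 210, 123, 122 and 182 CPM in knockdown libraries, against 113, 120, 124 and 108 CPM in scrambled libraries (adjusted p = 0.113, edgeR). The libraries were depleted of ribosomal RNA, and the labels do not say which of the 2 kits each had. The part of that step in the levels of mt-Rnr1 and mt-Rnr2 was not tested. Terc, the telomerase RNA, had 0.403, 0.297, 0.413 and 0.414 CPM in knockdown libraries, against 0.167, 0.246, 0.208 and 0.180 CPM in scrambled libraries, with no overlap (adjusted p = 0.0530, edgeR). A count of 3 is worth 0.078 to 0.134 CPM in the scrambled libraries, so the Terc values there rest on few counts. The long nuclear RNAs Malat1 and Neat1 had log2 fold changes of 0.02 and 0.18, and both, like Rn7sk, were below 0 without knockdown replicate 1. Rn7s1, Rn7s2, Rnu7, the U7 RNA of histone end processing, and Scarna2 had too few counts, and Rn45s was not analysed here.

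Of 18 genes that make and process histone messages none was called higher and 2 were called lower, where 7.29% of all tested genes were lower, and their median log2 fold change was -0.11. Cpsf2, which encodes the CPSF100 subunit of the cleavage complex, had 322, 311, 338 and 315 CPM in knockdown libraries, against 394, 374, 389 and 353 CPM in scrambled libraries (log2 fold change -0.23, SE 0.05, adjusted p = 0.0264, edgeR). Ncbp2, the small subunit of the cap-binding complex, had 80.4, 72.5, 72.2 and 82.8 CPM in knockdown libraries, against 83.9, 97.9, 94.0 and 93.1 CPM in scrambled libraries (log2 fold change -0.26, SE 0.07, adjusted p = 0.0427, edgeR). For both genes every knockdown library lay below every scrambled one.

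Slbp, the stem-loop binding protein, had 212, 199, 251 and 225 CPM in knockdown libraries, against 269, 260, 223 and 292 CPM in scrambled libraries, and did not pass (log2 fold change -0.23, adjusted p = 0.124, edgeR), though without knockdown replicate 3 its adjusted p was 0.0332. Npat, the coactivator of histone genes, had a log2 fold change of -0.11 and Casp8ap2 (FLASH), a part of the histone locus body, one of -0.19, with edgeR adjusted p of 0.297 and 0.199. The U7 snRNP proteins Lsm10 and Lsm11 had values of 0.02 and -0.12, and Zfp473 (ZFP100), which joins U7 to the processing complex, had 0.02 on 1.59 to 3.16 CPM in knockdown and 1.53 to 2.59 CPM in scrambled libraries. None of these 5 passed the test.

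Among the 21 histone chaperones and import factors 0 were called higher and 1 lower, where 7.29% of all tested genes were lower. Ssrp1, a subunit of the FACT complex that moves nucleosomes, had 701, 716, 771 and 685 CPM in knockdown libraries, against 803, 851, 826 and 811 CPM in scrambled libraries (log2 fold change -0.20, SE 0.05, adjusted p = 0.0380, edgeR). The replication-independent variants are mostly polyadenylated and made outside S phase too. Of their 10 tested members 0 were called higher and 1 lower, where 8.02% of all tested genes were higher and 7.29% lower. The largest log2 fold changes of the list were 1.59 for H1fx, a linker histone variant (adjusted p = 0.0519, edgeR), and 1.27 for H2afy, which encodes macroH2A (adjusted p = 0.0657, edgeR), and DESeq2 called 3 variants higher. H2afz, which encodes H2A.Z, had 39.4, 42.8, 42.5 and 36.1 CPM in knockdown libraries, against 58.2, 51.6, 49.5 and 55.1 CPM in scrambled libraries, with no overlap. Its log2 fold change was -0.41 (SE 0.08, adjusted p = 0.0151, edgeR), and it stayed called with any 1 library left out. H3f3b, which encodes H3.3 and had the highest CPM of the variants, had 500, 523, 538 and 447 CPM in knockdown libraries, against 506, 489, 388 and 555 CPM in scrambled libraries (log2 fold change 0.05, adjusted p = 0.788, edgeR).

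Replication-dependent histone mRNA is tied to S phase, so the S phase genes are set beside it. Of 23 S phase genes 0 were called higher and 3 lower, where 7.29% of all tested genes were lower. Their median log2 fold change was -0.15, where all tested genes had 0.0012. The share of 7.29%, set beside each of these lists, includes genes of low level. Among tested genes 8.99% of those under 2 CPM and 17.1% of those at 2 CPM or more were called in either direction. Mcm2, a subunit of the replicative helicase, had 714, 705, 756 and 700 CPM in knockdown libraries, against 906, 904, 801 and 901 CPM in scrambled libraries (log2 fold change -0.29, SE 0.06, adjusted p = 0.0163, edgeR). Mcm7, of the same helicase, fell by 0.25 on the log2 scale (adjusted p = 0.0454, edgeR) and Cdc6, a loader of it, by 0.36 (adjusted p = 0.0471, edgeR). Rrm1, the gene with the highest CPM of the list and a subunit of ribonucleotide reductase, had a log2 fold change of -0.25 and did not pass (adjusted p = 0.0941, edgeR).

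Of 17 genes of G2 and mitosis 0 were called higher and 2 lower, where 7.29% of all tested genes were lower, with a median log2 fold change of -0.0038. Birc5 (survivin) had 137, 125, 158 and 138 CPM in knockdown libraries, against 173, 185, 171 and 205 CPM in scrambled libraries (log2 fold change -0.40, adjusted p = 0.0216, edgeR). Cenpe, a kinetochore motor, fell by 0.26 (adjusted p = 0.0406, edgeR). Mki67, the proliferation marker Ki-67, was at 2179, 2054, 2917 and 2288 CPM in knockdown libraries, against 2310, 2180, 2001 and 2464 CPM in scrambled libraries, and its log2 fold change was 0.08 (adjusted p = 0.687, edgeR).

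The calls in these lists changed with the libraries used, and so did those over all genes. Over all genes 2062 were called with all libraries, 3425 without knockdown replicate 3 and 526 without scrambled replicate 2. Without knockdown replicate 3 the lower calls were 12 in the S phase list, 4 in the mitosis list, 4 in the production list and 5 among the chaperones, and 2 variants were called higher. Without scrambled replicate 2 there were 0 lower calls in each of those 4 lists. The S phase list had 1 lower call without knockdown replicate 1, 2 or 4 or scrambled replicate 1 or 3, and 2 without scrambled replicate 4. The mitosis list had 0 without knockdown replicate 1 and 1 without knockdown replicate 2 or 4 or scrambled replicate 1, 3 or 4. The production list had 0 without knockdown replicate 1 or 2 or scrambled replicate 3, 1 without scrambled replicate 1 or 4 and 3 without knockdown replicate 4. The chaperones had 0 lower calls without knockdown replicate 1, 2 or 4 or scrambled replicate 1 or 3, and without scrambled replicate 4 they had 2 lower and 1 higher, and the variants 2 lower.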

How the data were processed

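RNA-seq of 8 libraries, 4 with a Fubp1 shRNA and 4 with a scrambled shRNA, was analysed from 1 table. Per the file headers it holds the authors' deposited whole-number read counts per gene, not normalized, with the authors' log2 fold changes, their standard errors and statistic (scores without a fixed range), mean signal, and raw and adjusted p-values. CASAVA 1.8 and DESeq2 1.18.1 were used, per the submitters' processing notes. The sources used here do not give the aligner, counter, strand setting, annotation or build, so reads of near-identical, overlapping or antisense genes may be mixed or missing. Each column was assigned to the sample whose description ends in the same number.

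The counts were fitted over all genes with edgeR 4.0.16 (R 4.3.3): filterByExpr, TMM scaling, robust quasi-likelihood F test, two-sided, Benjamini-Hochberg adjustment, threshold 0.05. Log2 fold changes are knockdown over scrambled. The 95% intervals come from the same fit. Alternatives were DESeq2 1.42.0, limma-voom (limma 3.58.1), other scaling and filters, a replicate block, and each library left out in turn. No test was run on class sums or lists.

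Library totals of 22465303 to 44761356 counts make 3 counts worth 0.067 to 0.134 CPM; these limits cover counting error only. Within groups, pairs of libraries differed by 10.7 to 88.9 chi-square per degree of freedom, so none was a copy of another. Each library is 1 mouse. The histone genes, gene lists and tests were chosen with earlier results of these data known. Named genes were the 3 tested members per class with the highest mean CPM, the 3 largest and 3 smallest log2 fold changes, the highest untested member, called members of the other lists with their highest member, the core production genes, all members of the non-polyadenylated list, and Fubp1. The members shown for sequence, the 6 with the highest CPM and the splits by annotated end were chosen after their values were seen. Transcript features came from GENCODE vM21 (GRCm38), matched by gene ID for all 67 members, and promoter windows from RefSeq GRCm38.p6. That build was not compared with the authors', and no coordinates were taken from their table.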

Additional observations from a re-analysis of the deposited data

Results flagged for a closer look

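In 4 cases the highest library of a group of 4 lay farther from the others than Dixon's 95% limit allows, which chance alone gives in about 1 in 20 groups. The number of groups looked at is not given here, so these 4 cases cannot be told from that share. In scrambled replicate 4, Hist4h4 had 1.3 CPM, Hist1h3g had 0.809 CPM and Fubp1, the targeted gene, had 396 CPM. In knockdown replicate 4, Zfp473, which links the U7 snRNP to histone end processing, had 3.16 CPM. Scrambled replicate 4 has the fewest counts of the 8 libraries, 22465303, and its Hist4h4 value rests on 29 counts and its Hist1h3g value on 18.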

How the results depend on the processing

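No tested histone gene was called under DESeq2, limma-voom, DESeq2 size factors, no filter, a filter of 1 CPM in 4 libraries and the replicate block. With 1 library left out, 0 to 1 histone genes were called higher (Hist1h1e without knockdown replicate 3) and 0 lower, while the calls over all genes ranged from 526 to 3425, against 2062 with all libraries. DESeq2 gave 3551 calls over all genes, 2 lower chaperones and 3 higher variants.

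Replicate numbers are shared by the groups but do not pair the libraries: same-numbered libraries had correlations of their deviations of -0.401, -0.0328, -0.505 and -0.177, and no library correlated best with its own number. With the number as a replicate block, 400 genes were called, with 0 lower calls in the production, chaperone, variant, S phase and mitosis lists. Fubp1 had adjusted p of 0.113 there and 0.0365 without a filter.

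With the filter of 1 CPM the median log2 fold change was 0.13 over the tested histone genes, 0.025 for H2A and 0.11 for H2B, over fewer genes, and no H3 gene was left to give a value. The production list had 1 lower call there and 1 with limma-voom, and the chaperones had 0 without a filter. The H1 sum without Hist1h1c had a log2 ratio of 0.49. Knockdown replicate 1 was the highest library for Hist1h1a, Hist1h1b, Hist1h1d and Hist1h1e, and this ratio was not taken without that library. Signs turned for Hist1h1c (-0.013 with limma-voom, -0.0079 without a filter), Hist4h4 (0.15 with limma-voom, 0.027 with the block), Hist3h2a (-0.014 without a filter) and Zfp473 (-0.0030 without a filter, -0.022 with the block). The cause was not tested.

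With 1 library left out, log2 fold changes ranged from -0.15 to 0.15 for Hist1h1c, -0.16 to 0.16 for Hist3h2a, -0.35 to 0.53 for Hist4h4, -0.39 to 0.061 for Hist1h3c, -0.44 to 0.084 for Hist1h4j, -0.057 to 0.065 for Lsm10, -0.30 to 0.16 for Zfp473, -0.051 to 0.11 for H3f3b, -0.052 to 0.14 for Mki67, -0.056 to 0.87 for Rn7sk, -0.054 to 0.10 for Malat1 and -0.093 to 0.31 for Neat1. Median log2 fold changes ranged from 0.093 to 0.43 over the tested histone genes, 0.065 to 0.61 for H1, 0.13 to 0.42 for H2B and 0.028 to 0.45 for H4. Lower calls ranged from 0 to 12 for S phase, 0 to 4 for mitosis, 0 to 5 for chaperones, 0 to 4 for production and 1 to 2 for variants, and higher calls from 0 to 1 for chaperones, 0 to 2 for variants and 1 to 2 for non-polyadenylated RNAs. Of the 26 tested members 20 averaged under 2 CPM, where 3 counts are worth 0.067 to 0.134 CPM.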
